A study of Homo sapiens with 2 samples.

Results

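Semaphorins, ephrins, netrins and Slits are the secreted or membrane-bound cues first known for steering growing axons, and they also set adhesion, migration and vessel growth in epithelia and tumours. Semaphorins are read by plexins, which act on small GTPases, often with a neuropilin as co-receptor. Ephrins are read by Eph receptor tyrosine kinases, netrins by DCC, neogenin and the UNC5 receptors, and Slits by Robo receptors. The genes described here are defined by symbol alone, and they were chosen with earlier results of these data known. They are the numbered semaphorins, plexins, neuropilins, ephrins, netrins, Slits and Robos of the count table, with UNC5A, UNC5B, UNC5C, NTNG1 and NTNG2. They made up 54 of the 17249 gene rows, namely 19 semaphorins, 9 plexins, 2 neuropilins, 8 ephrins, 6 netrins, 3 UNC5 netrin receptors, 3 Slits and 4 Robos.

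The libraries were poly(A)-selected RNA of cells labelled as DU145, a human prostate cancer line, with 1 library in each group. The first group received an siRNA to P53RRA, a long noncoding RNA made from LINC00472, at 200 pmol. The second is a control whose data column carries the name of a negative-control RNA, while its title names no siRNA. The labels give both samples the same treatment text, with fresh medium at 4 h and a further 48 h of growth, and that text names no RNA or dose for the control. The si-P53RRA library held 11942362 counts and the control library 16030207. "Higher" and "lower" below describe the si-P53RRA library against the control library. With no replicate, no difference could be tested between conditions, and each interval in parentheses is an exact 95% interval that covers counting error only. Levels are given as CPM, counts relative to a library size scaled by the trimmed mean of M-values (TMM), and a gene was called when it was at least 2-fold apart on log2(CPM + 0.5) with at least 1 CPM in either library. LINC00472 itself had 6 counts in the si-P53RRA library and 105 in the control library, 11.9-fold lower (5.29 to 33.2).

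Markers of cell type differed widely between libraries that carry the same cell line label, and an epithelial marker of a carcinoma line was absent from one of them, so each library is called below by its label. Whether both hold the same cells was not tested, and in each value below a difference of cells and the siRNA cannot be told apart. Of 10 tested epithelial markers, 8 were higher and 0 lower, beside 19.7% and 23.2% of all genes tested. Their list summed to 2061 CPM in the si-P53RRA library and 400 CPM in the control library. Of the 10, 5 reached 1 CPM only in the si-P53RRA library, which favours a higher call. The 5 that reached it on both sides gave 3 higher and 0 lower calls, beside 16.2% and 17.0% of all such genes. EPCAM, a surface marker of epithelium, had 50 counts in the si-P53RRA library and 0 in the control library. GRHL2 had 6 (si-P53RRA) and 0 (control) counts. E-cadherin, CDH1, had 7 (si-P53RRA) and 2 (control) counts. Of 15 mesenchymal and fibroblast markers, 13 were lower and 0 higher. They summed to 1588 CPM in the si-P53RRA library and 11818 CPM in the control library, and DCN and THY1 were at 0 in the si-P53RRA library. Of the 15, 5 reached 1 CPM only in the control library, which favours a lower call. The 10 that reached it on both sides gave 8 lower and 0 higher calls. Among prostate markers, HOXB13 had 10004 counts in the si-P53RRA library and 0 in the control library. Endothelial markers summed to 29.2 CPM in the si-P53RRA library and 11.7 CPM in the control library, neuronal markers to 166 CPM (si-P53RRA) and 165 CPM (control), and leukocyte markers to 79.7 CPM (si-P53RRA) and 40.7 CPM (control). Most of the neuronal sum was TUBB3, at 149 CPM (si-P53RRA) and 139 CPM (control), while SYT1 had 163 (si-P53RRA) and 28 (control) counts and MAP2 had 9 (si-P53RRA) and 343 (control) counts. Most of the leukocyte sum was CD68, at 77.9 CPM (si-P53RRA) and 39.7 CPM (control). The neuronal marker SNAP25 had 0 counts in the si-P53RRA library and 15 in the control library. At 0 in the si-P53RRA library were also the leukocyte markers PTPRC and CD74, with only 2 and 1 counts in the control library. The endothelial markers CLDN5 and KDR had 1 and 61 counts in the si-P53RRA library and 0 in the control library. TEK and VWF had 0 in the si-P53RRA library and 17 and 8 in the control library. The part of these differences in the results below was not tested. In such bulk samples, fewer cells of a type and less RNA per cell cannot be told apart.

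Guidance genes differed widely between the libraries, in both directions. Of the 54 genes, 45 passed the 1 CPM filter, with 14 called higher, 21 lower and 10 neither. Among all 13532 genes tested, 19.7% were called higher and 23.2% lower. Both shares of guidance genes, 31.1% higher and 46.7% lower, were above those of all genes, a description with no test. Since the genes were chosen with earlier results of these data known, these shares cannot serve as support for a difference. Of the 45, 4 passed the filter only through the si-P53RRA library and 9 only through the control library, and a gene that passes through its higher library alone tends to be called by that choice. With at least 1 CPM required in both libraries, 10 of 32 guidance genes were higher (31.2%) and 12 lower (37.5%), against 16.2% and 17.0% of 11214 genes. The median log2 change was −0.43 for guidance genes and −0.055 for all genes tested, but the guidance gene median became 0.025 when at least 5 CPM was required. At least 10-fold apart on the same scale were 5 higher and 7 lower guidance genes, or 11.1% and 15.6%, against 3.67% and 4.77% of all genes tested. Among them, UNC5C, NTN1, EFNB3, UNC5B, SLIT3 and SEMA5A passed the filter only through the library where they were higher. The 10-fold counts were not repeated with 1 CPM required in both libraries. With a pseudocount of 2.5 CPM, 4 higher calls (EFNA4, PLXNB3, ROBO4 and SEMA4D) and 6 lower calls (NTNG2, PLXNA3, PLXNC1, SEMA3B, SEMA4G and SEMA6D) were lost.

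Summed over all members, the libraries were close in share of counts, while family sums went both ways, as given below. Together the 54 genes took 0.189% of the counts in the si-P53RRA library and 0.171% in the control library. On the TMM scale they summed to 1978 CPM (si-P53RRA) and 1634 CPM (control), of which NRP1 alone held 745 CPM and 255 CPM. The 36 ligand genes gave 10 higher and 14 lower calls among 30 tested (33.3% and 46.7%), with a median log2 change of −0.68. The 18 receptor genes gave 4 higher and 7 lower among 15 tested (26.7% and 46.7%), with a median of 0.27. Of all genes tested, 19.7% were higher and 23.2% lower. With at least 1 CPM in both libraries, 7 of 20 ligand genes were higher and 7 lower, and of 12 receptor genes 3 were higher and 5 lower. Within semaphorins, plexins, neuropilins, ephrins, netrins and UNC5 receptors, calls were made in both directions, as the plot of levels by family shows.

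**Figure D1:**
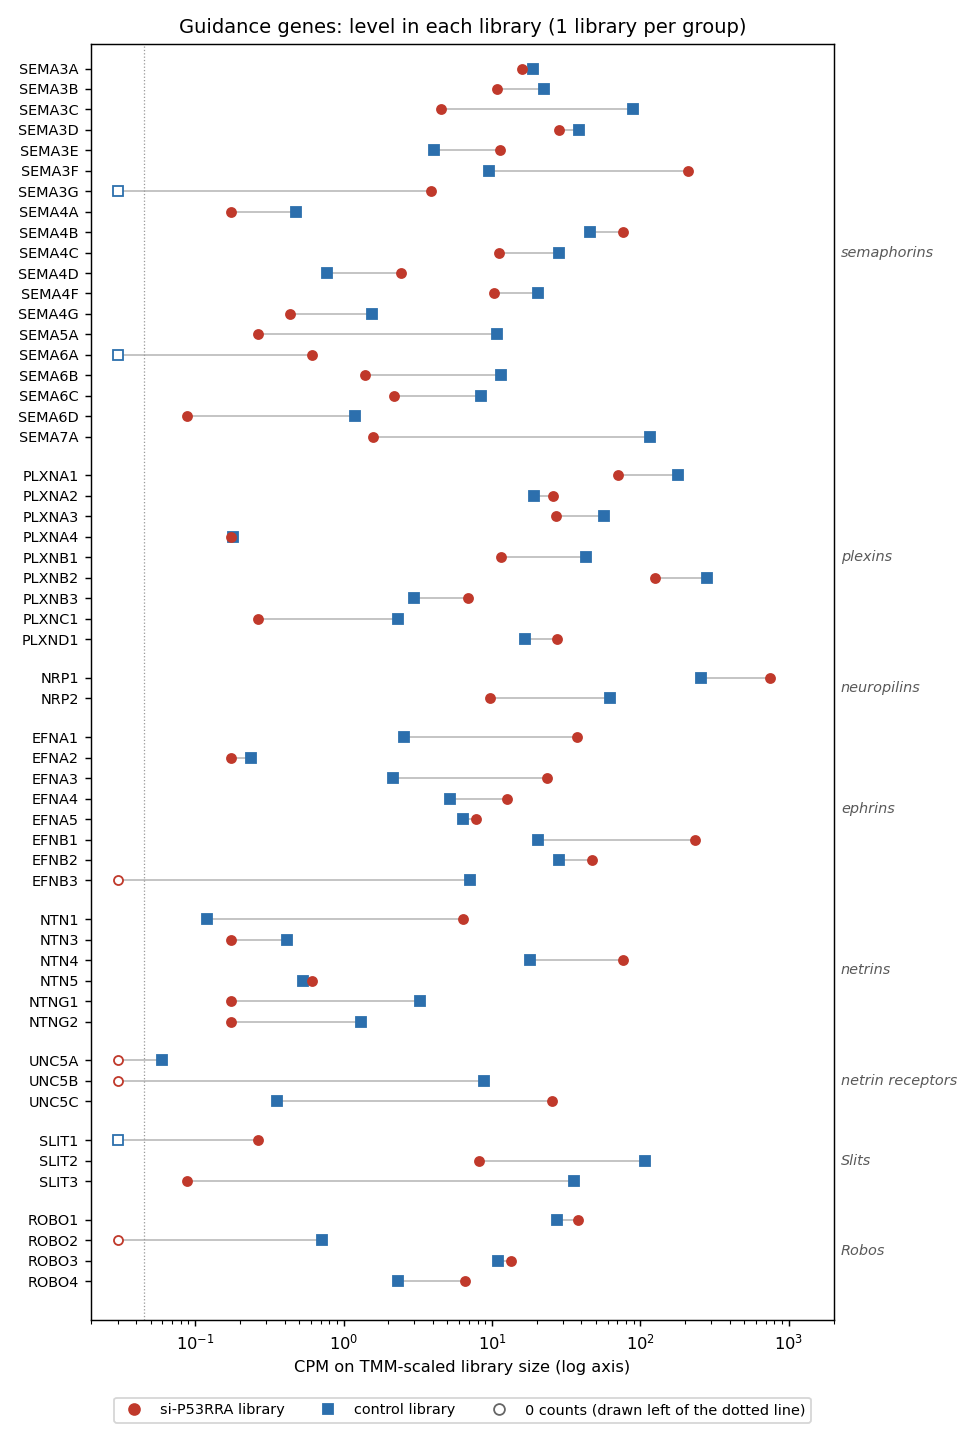
Level of each of the 54 guidance genes in the si-P53RRA library (red circles) and the control library (blue squares), in CPM on a log axis, grouped by family, with open symbols for 0 counts. NRP1 lay at 745 CPM in the si-P53RRA library and 255 CPM in the control library, and 4 genes were at 0 in the si-P53RRA library and 3 in the control library.

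The secreted class 3 semaphorins, which repel cells and axons through neuropilin and plexin complexes, exchanged their leading member. SEMA3F, a ligand that prefers NRP2, had 2386 counts (209 CPM) in the si-P53RRA library and 160 counts (9.54 CPM) in the control library. It was high in the si-P53RRA library, 21.9-fold higher (18.7 to 25.9). SEMA3C, known from heart outflow tract development and from prostate cancer cells, had 52 counts (4.56 CPM) in the si-P53RRA library and 1487 counts (88.6 CPM) in the control library. It was 19.4-fold lower (14.7 to 26.2), almost as far in the opposite direction. Per kilobase of the longest transcript, SEMA3F made up 80.9% of the class 3 level in the si-P53RRA library and 7.07% in the control library, while SEMA3C made up 1.30% in the si-P53RRA library and 48.3% in the control library.

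The other class 3 genes with counts in both libraries lay between these extremes. SEMA3E, which binds PLXND1 without a neuropilin, had 130 counts (11.4 CPM) in the si-P53RRA library and 68 counts (4.05 CPM) in the control library, 2.81-fold higher (2.08 to 3.83). SEMA3B, described as a tumour suppressor in lung, had 123 counts (10.8 CPM) in the si-P53RRA library and 378 counts (22.5 CPM) in the control library, 2.09-fold lower (1.70 to 2.58). SEMA3G, an NRP2 ligand known from vessels, had 44 (si-P53RRA) and 0 (control) counts and was at least 21.6-fold higher, set against 3 counts in the control library. Neither call was reached by SEMA3A, the first collapsin described, with 183 counts (16.04 CPM) in the si-P53RRA library and 315 counts (18.8 CPM) in the control library, or by SEMA3D, with 324 counts (28.4 CPM) in the si-P53RRA library and 646 counts (38.5 CPM) in the control library. Their log2 changes of −0.22 and −0.43 became 0.52 and 0.44 once log2 changes were adjusted for the GC content and length of transcripts, so no direction is given for them.

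SEMA7A had the widest drop of any semaphorin. This gene encodes a GPI-anchored semaphorin that signals through beta-1 integrins and PLXNC1. It had 18 counts (1.58 CPM) in the si-P53RRA library and 1959 counts (117 CPM) in the control library, 74.0-fold lower (46.7 to 125). Its receptor gene PLXNC1 was low in both libraries, with 3 (si-P53RRA) and 39 (control) counts. In the control library SEMA7A held 34.9% of the semaphorin level per kilobase of the longest transcript, ahead of SEMA3C at 17.3%. With the median transcript length in its place the order turned, with 11.8% for SEMA7A and 37.2% for SEMA3C, so which of them led there depends on the length used. In the si-P53RRA library SEMA3F led by either length, with 58.1% by the longest and 50.7% by the median transcript.

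Most transmembrane semaphorins that were called were lower, namely SEMA4C, SEMA4G, SEMA5A, SEMA6B, SEMA6C and SEMA6D, while SEMA4D was higher. Of all genes tested, 23.2% were lower and 19.7% higher. SEMA4G, SEMA5A and SEMA6D passed the filter only through the control library, and SEMA4D only through the si-P53RRA library. Each of the 3 tested class 6 genes was lower, SEMA6D among them. SEMA6B had 16 counts (1.402 CPM) in the si-P53RRA library and 193 counts (11.5 CPM) in the control library, 8.20-fold lower (4.92 to 14.6). SEMA6C had 25 counts (2.19 CPM) in the si-P53RRA library and 141 counts (8.40 CPM) in the control library, 3.83-fold lower (2.49 to 6.13). SEMA6D, a PLXNA1 ligand, had 1 (si-P53RRA) and 20 (control) counts, while SEMA6A, at 7 (si-P53RRA) and 0 (control) counts, stayed under 1 CPM. SEMA5A, whose extracellular part carries thrombospondin repeats, had 3 counts (0.263 CPM) in the si-P53RRA library and 180 counts (10.7 CPM) in the control library, 40.8-fold lower (13.7 to 199.7).

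Class 4 semaphorins, ligands of class B plexins among others, were mixed. SEMA4C, a ligand of PLXNB2, had 128 counts (11.2 CPM) in the si-P53RRA library and 471 counts (28.1 CPM) in the control library, 2.502-fold lower (2.05 to 3.07). SEMA4B had 871 counts (76.3 CPM) in the si-P53RRA library and 766 counts (45.6 CPM) in the control library, a ratio of 1.67 (1.52 to 1.85) that was not called. SEMA4F had 118 counts (10.3 CPM) in the si-P53RRA library and 340 counts (20.3 CPM) in the control library and also missed the call, with a log2 change of −0.94, but it was called lower, at −1.06, when libraries were scaled on total counts. Of the rest, SEMA4D, the ligand of PLXNB1, had 28 (si-P53RRA) and 13 (control) counts and was called higher, SEMA4G had 5 (si-P53RRA) and 26 (control) counts and was called lower, and SEMA4A, with 2 (si-P53RRA) and 8 (control) counts, stayed under 1 CPM.

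Among plexins, 5 of 8 tested genes were lower and 1 was higher, beside 23.2% and 19.7% of all genes. PLXNC1, 1 of the lower genes, passed the filter only through the control library. With at least 1 CPM in both libraries, 4 of 7 plexins were lower and 1 higher. The summed plexin level was 294 CPM in the si-P53RRA library and 601 CPM in the control library. PLXNB2, a receptor of class 4 semaphorins, had 1425 counts (125 CPM) in the si-P53RRA library and 4714 counts (281 CPM) in the control library, 2.25-fold lower (2.12 to 2.39). PLXNA1, a signalling partner of NRP1, had 804 counts (70.5 CPM) in the si-P53RRA library and 3013 counts (179.6 CPM) in the control library, 2.55-fold lower (2.36 to 2.76). Per kilobase of the longest transcript, PLXNB2 was first in both libraries, with 50.6% of the plexin level in the si-P53RRA library and 55.2% in the control library, and PLXNA1 second, with 20.1% (si-P53RRA) and 24.8% (control). With the median transcript length PLXNB2 stayed first, with 30.6% (si-P53RRA) and 37.3% (control), and PLXNA3 came second.

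The remaining called plexins had lower levels per kilobase of the longest transcript. PLXNB1, the SEMA4D receptor, had 132 counts (11.6 CPM) in the si-P53RRA library and 721 counts (43.0 CPM) in the control library, 3.71-fold lower (3.08 to 4.51). PLXNA3 had 309 counts (27.1 CPM) in the si-P53RRA library and 948 counts (56.5 CPM) in the control library, 2.09-fold lower (1.83 to 2.38). Against the direction of its relatives, PLXNB3, described as a SEMA5A receptor, had 78 counts (6.84 CPM) in the si-P53RRA library and 50 counts (2.98 CPM) in the control library, 2.29-fold higher (1.59 to 3.34). Its call was lost when libraries were scaled on total counts, where the log2 change was 0.96. PLXNA2 and PLXND1 were not called, with 293 counts (25.7 CPM) and 313 counts (27.4 CPM) in the si-P53RRA library, and 323 counts (19.2 CPM) and 280 counts (16.7 CPM) in the control library. PLXNA4, under 1 CPM, had 2 (si-P53RRA) and 3 (control) counts.

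The neuropilins parted from each other. NRP1, co-receptor of class 3 semaphorins and of VEGF-A, had 8504 counts (745 CPM) in the si-P53RRA library and 4273 counts (255 CPM) in the control library, 2.93-fold higher (2.82 to 3.04). NRP2, the co-receptor that SEMA3F and VEGF-C use, had 111 counts (9.73 CPM) in the si-P53RRA library and 1039 counts (61.9 CPM) in the control library, 6.36-fold lower (5.23 to 7.81). NRP1 thus held 98.7% of the neuropilin counts in the si-P53RRA library (Wilson interval 98.5 to 98.9%) and 80.4% in the control library (79.4 to 81.5%). SEMA3F and its favoured co-receptor NRP2 moved in opposite directions, with log2 changes of 4.38 and −2.61.

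**Figure D2:**
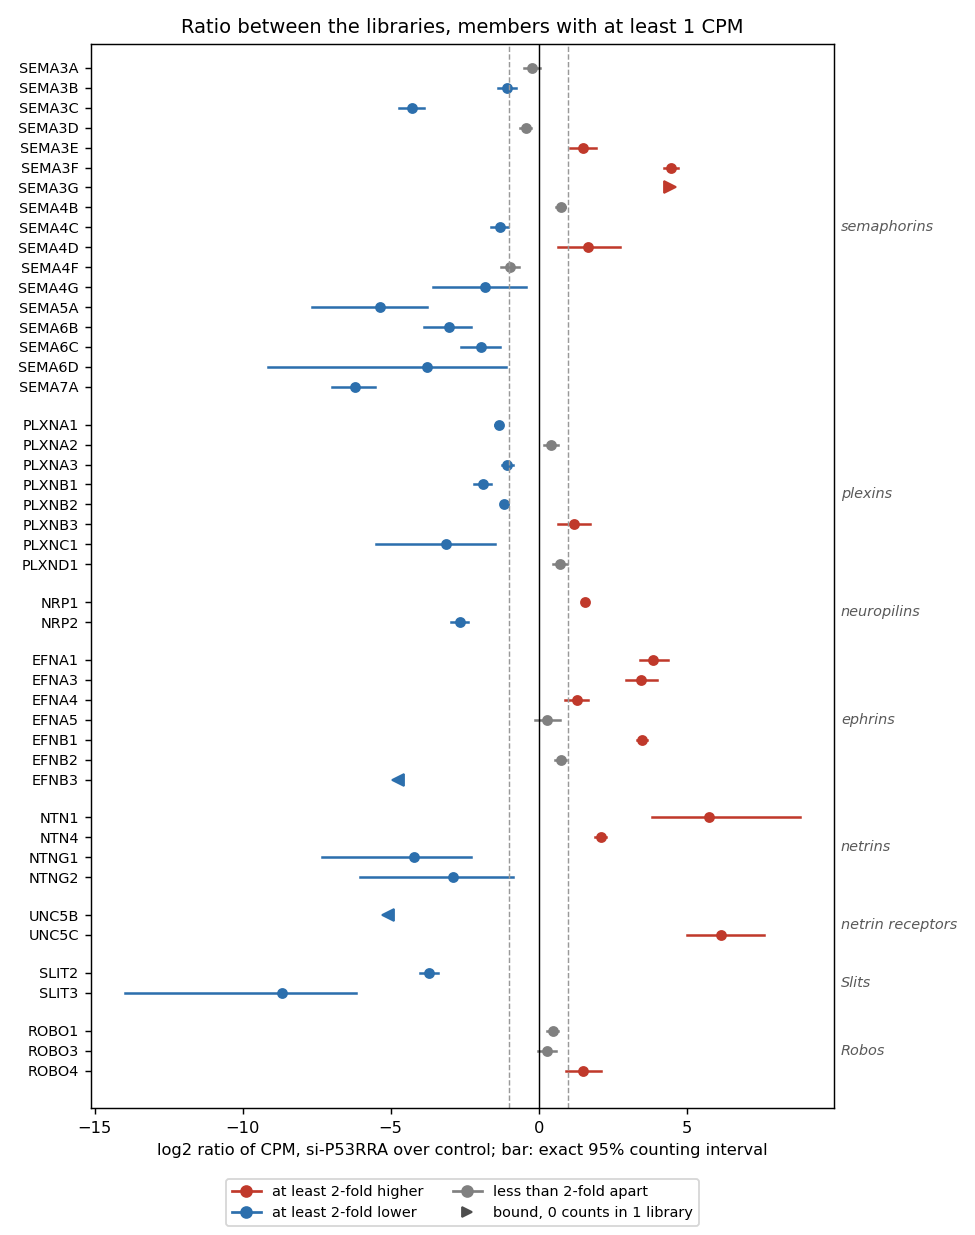
Ratio of CPM between the si-P53RRA and control libraries on a log2 axis for the 45 guidance genes that passed the filter, by family. Points carry exact 95% counting intervals, arrows are bounds for genes with 0 counts in 1 library, dashed lines mark 2-fold, and colours give the call, which was made on log2(CPM + 0.5); the point of SLIT3 lies farthest left and that of UNC5C farthest right.

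Among ephrins, 4 of 7 tested genes were higher and 1 was lower, beside 19.7% and 23.2% of all genes. The lower gene, EFNB3, passed the filter only through the control library. The summed ephrin level was 360 CPM in the si-P53RRA library and 72.3 CPM in the control library. A-type ephrins are held to the membrane by a lipid anchor, while B-type ephrins span it and can signal into the cell that carries them. EFNB1, a B-type ephrin mutated in craniofrontonasal syndrome, had 2645 counts (232 CPM) in the si-P53RRA library and 345 counts (20.6 CPM) in the control library, 11.3-fold higher (10.1 to 12.7). EFNB3, a midline B-type ephrin of the nervous system, had 0 counts in the si-P53RRA library and 120 counts (7.15 CPM) in the control library, at least 27.2-fold lower, set against 3 counts in the si-P53RRA library. EFNB2, known from arteries, had 534 counts (46.8 CPM) in the si-P53RRA library and 471 counts (28.1 CPM) in the control library and was not called, at a ratio of 1.67 (1.47 to 1.89). Per kilobase of the longest transcript, EFNB1 made up 56.6% of the ephrin level in the si-P53RRA library and 28.0% in the control library, where EFNB2 was close behind at 25.3%. With the median transcript length EFNA5 led in the control library, at 24.9%.

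The A-type ephrins EFNA4, EFNA3 and EFNA1 follow each other on chromosome 1 with no other gene of the table between them, and all were higher. EFNA1, a ligand of EPHA2, had 428 counts (37.5 CPM) in the si-P53RRA library and 43 counts (2.56 CPM) in the control library, 14.6-fold higher (10.7 to 20.5). EFNA3 had 266 counts (23.3 CPM) in the si-P53RRA library and 36 counts (2.15 CPM) in the control library, 10.9-fold higher (7.65 to 15.9). EFNA4 had 145 counts (12.7 CPM) in the si-P53RRA library and 88 counts (5.24 CPM) in the control library, 2.42-fold higher (1.85 to 3.20), and its log2 change of 1.20 became 0.74 under the same adjustment for GC content and length. An annotated read-through gene shares exons with EFNA4 and EFNA3, so the split of reads between them is uncertain. EFNA5, on chromosome 5, had 89 counts (7.801 CPM) in the si-P53RRA library and 107 counts (6.38 CPM) in the control library and was not called, and EFNA2 had 2 (si-P53RRA) and 4 (control) counts.

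The promoter windows of the 3 neighbouring ephrin genes are shown because these genes moved the same way. They run 5′ to 3′ from 250 bases before to 50 after the RefSeq gene start (GRCh38.p14, a newer build than that of the counts). Capitals mark GGGCGG on either strand, the core of the GC box bound by SP1, and CACCTG on either strand, an E-box form that ZEB and SNAI repressors are known to bind. The windows are EFNA4 at chr1:155063490-155063789, EFNA3 at chr1:155078587-155078886 and EFNA1 at chr1:155127626-155127925, all on the plus strand.
EFNA4: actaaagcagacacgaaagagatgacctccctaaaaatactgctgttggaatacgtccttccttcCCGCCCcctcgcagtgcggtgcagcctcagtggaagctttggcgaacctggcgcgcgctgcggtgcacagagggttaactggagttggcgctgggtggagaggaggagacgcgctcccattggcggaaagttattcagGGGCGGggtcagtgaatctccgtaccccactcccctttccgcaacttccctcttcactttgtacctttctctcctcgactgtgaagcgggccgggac
EFNA3: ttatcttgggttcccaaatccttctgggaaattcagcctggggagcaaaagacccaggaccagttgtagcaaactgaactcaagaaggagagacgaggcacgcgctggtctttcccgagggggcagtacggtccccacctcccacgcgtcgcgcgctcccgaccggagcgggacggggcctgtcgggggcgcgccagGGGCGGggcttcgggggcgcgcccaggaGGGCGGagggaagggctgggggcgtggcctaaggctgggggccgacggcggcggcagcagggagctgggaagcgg
EFNA1: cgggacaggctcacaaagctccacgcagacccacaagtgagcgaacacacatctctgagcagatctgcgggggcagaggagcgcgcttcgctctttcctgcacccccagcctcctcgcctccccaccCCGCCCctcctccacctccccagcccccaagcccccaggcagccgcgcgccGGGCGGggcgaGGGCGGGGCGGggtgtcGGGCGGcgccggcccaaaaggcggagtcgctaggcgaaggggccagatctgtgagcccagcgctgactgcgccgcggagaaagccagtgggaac
In the order listed, these windows held 2, 2 and 5 matches to GGGCGG and 0 to CACCTG, and a match is a description of the letters and not of a bound site.

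SEMA3F and SEMA3B give the contrary case, since they lie on chromosome 3 with 3 genes of the table between them and were called in opposite directions, at log2 changes of 4.38 and −1.03. Their windows, with the same marks, are at chr3:50154808-50155107 and chr3:50272869-50273168, both on the plus strand.
SEMA3F: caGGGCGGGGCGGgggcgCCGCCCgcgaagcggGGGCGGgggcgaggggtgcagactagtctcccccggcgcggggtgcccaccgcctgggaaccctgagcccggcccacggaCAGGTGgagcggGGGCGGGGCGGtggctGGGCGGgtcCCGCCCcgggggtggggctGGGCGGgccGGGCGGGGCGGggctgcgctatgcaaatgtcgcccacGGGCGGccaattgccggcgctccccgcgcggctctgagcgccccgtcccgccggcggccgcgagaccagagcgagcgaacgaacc
SEMA3B: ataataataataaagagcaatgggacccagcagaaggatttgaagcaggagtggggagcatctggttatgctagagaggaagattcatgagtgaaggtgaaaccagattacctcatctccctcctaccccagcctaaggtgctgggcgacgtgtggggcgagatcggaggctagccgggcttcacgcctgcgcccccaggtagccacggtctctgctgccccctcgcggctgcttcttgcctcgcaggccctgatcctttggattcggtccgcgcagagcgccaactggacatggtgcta
The SEMA3F window held 12 matches to GGGCGG, some overlapping, and 1 to CACCTG, and that of SEMA3B held 0 of each. Of the 54 genes, 45 had a window in the RefSeq table. GGGCGG was in 33 of these 45 (73.3%) and in 44.6% of all 27305 windows, and CACCTG was in 7 (15.6%) and in 20.6%. By call, GGGCGG was in 9 of 12 windows of higher genes and 13 of 17 of lower genes, and CACCTG in 3 and 1 of these. Median GC content of the windows was 63.5% for higher genes and 70.0% for lower genes, against 58.3% for all windows. TATAAA, the TATA box, was in 1 guidance gene window and in 11.95% of all windows.

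Calls differed among other neighbours too, though adjacent SEMA3A and SEMA3D were both not called. On chromosome 7, SEMA3E, SEMA3A and SEMA3D follow each other with log2 changes of 1.39, −0.22 and −0.43, and SEMA3C, 3 genes away, stood at −4.14. On chromosome 11, ROBO3 and ROBO4 are adjacent and had changes of 0.27 and 1.32. On chromosome 17, EFNB3 and NTN1, 25 genes of the table apart, had −3.94 and 3.48.

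Of 4 tested netrin genes, both called secreted netrins were higher and both tested netrin-G genes were lower, beside 19.7% and 23.2% of all genes. NTN4, a netrin of basement membranes that binds laminin, had 877 counts (76.9 CPM) in the si-P53RRA library and 303 counts (18.1 CPM) in the control library, 4.26-fold higher (3.73 to 4.87). NTN1, the classic ligand of DCC and UNC5 receptors, had 73 counts (6.40 CPM) in the si-P53RRA library and 2 counts (0.119 CPM) in the control library, 53.7-fold higher (14.3 to 452). GPI-anchored NTNG1 had 2 (si-P53RRA) and 55 (control) counts and NTNG2 had 2 (si-P53RRA) and 22 (control) counts, both called lower at low levels, and the call of NTNG2 was lost with a pseudocount of 2.5 CPM. NTN1, NTNG1 and NTNG2 each passed the filter only through the library where they were higher. NTN3 and NTN5 stayed under 1 CPM. NTN4 made up 93.5% of the netrin level per kilobase of the longest transcript in the si-P53RRA library and 77.8% in the control library, so it was the main netrin RNA in both.

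The UNC5 receptors, known as dependence receptors that can signal death without ligand, differed in which member was counted. UNC5C had 291 counts (25.5 CPM) in the si-P53RRA library and 6 counts (0.358 CPM) in the control library, 71.3-fold higher (32.4 to 196). UNC5B, expressed in vessels among other tissues, had 0 counts in the si-P53RRA library and 149 counts (8.88 CPM) in the control library, at least 33.8-fold lower, set against 3 counts in the si-P53RRA library. UNC5A had 0 (si-P53RRA) and 1 (control) counts. Of the counts of UNC5A, UNC5B and UNC5C together, UNC5C held all 291 in the si-P53RRA library, and UNC5B 95.5% in the control library (Wilson interval 91.0 to 97.8%). UNC5D, which is among the partner receptors and not in these shares, had 40 (si-P53RRA) and 11 (control) counts and was 5.35-fold higher (2.69 to 11.6), a call lost with a pseudocount of 2.5 CPM.

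Both tested Slit ligands were lower, and no tested Robo receptor was, beside 23.2% of all genes. SLIT3 passed the filter only through the control library. SLIT2 had 93 counts (8.15 CPM) in the si-P53RRA library and 1788 counts (107 CPM) in the control library, 13.1-fold lower (10.6 to 16.3). SLIT3 had 1 count (0.0877 CPM) in the si-P53RRA library and 595 counts (35.5 CPM) in the control library, 405-fold lower (72.3 to 16005). SLIT1 had 3 (si-P53RRA) and 0 (control) counts, too few for a ratio. The summed Slit level was 8.50 CPM in the si-P53RRA library and 142 CPM in the control library.

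ROBO1, the widely expressed Slit receptor, had 436 counts (38.2 CPM) in the si-P53RRA library and 463 counts (27.6 CPM) in the control library, a ratio of 1.39 (1.21 to 1.58). ROBO3, the divergent Robo of commissural axons, had 153 counts (13.4 CPM) in the si-P53RRA library and 185 counts (11.025 CPM) in the control library. Neither was called. ROBO4, known from endothelium, had 75 counts (6.57 CPM) in the si-P53RRA library and 39 counts (2.32 CPM) in the control library, 2.83-fold higher (1.90 to 4.28). Beside it, the endothelial markers KDR and PECAM1 had 61 and 101 counts in the si-P53RRA library and 0 and 10 in the control library, while TEK and VWF were at 0 in the si-P53RRA library, and their part in the ROBO4 value was not tested. ROBO2 had 0 (si-P53RRA) and 12 (control) counts.

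**Figure D3:**
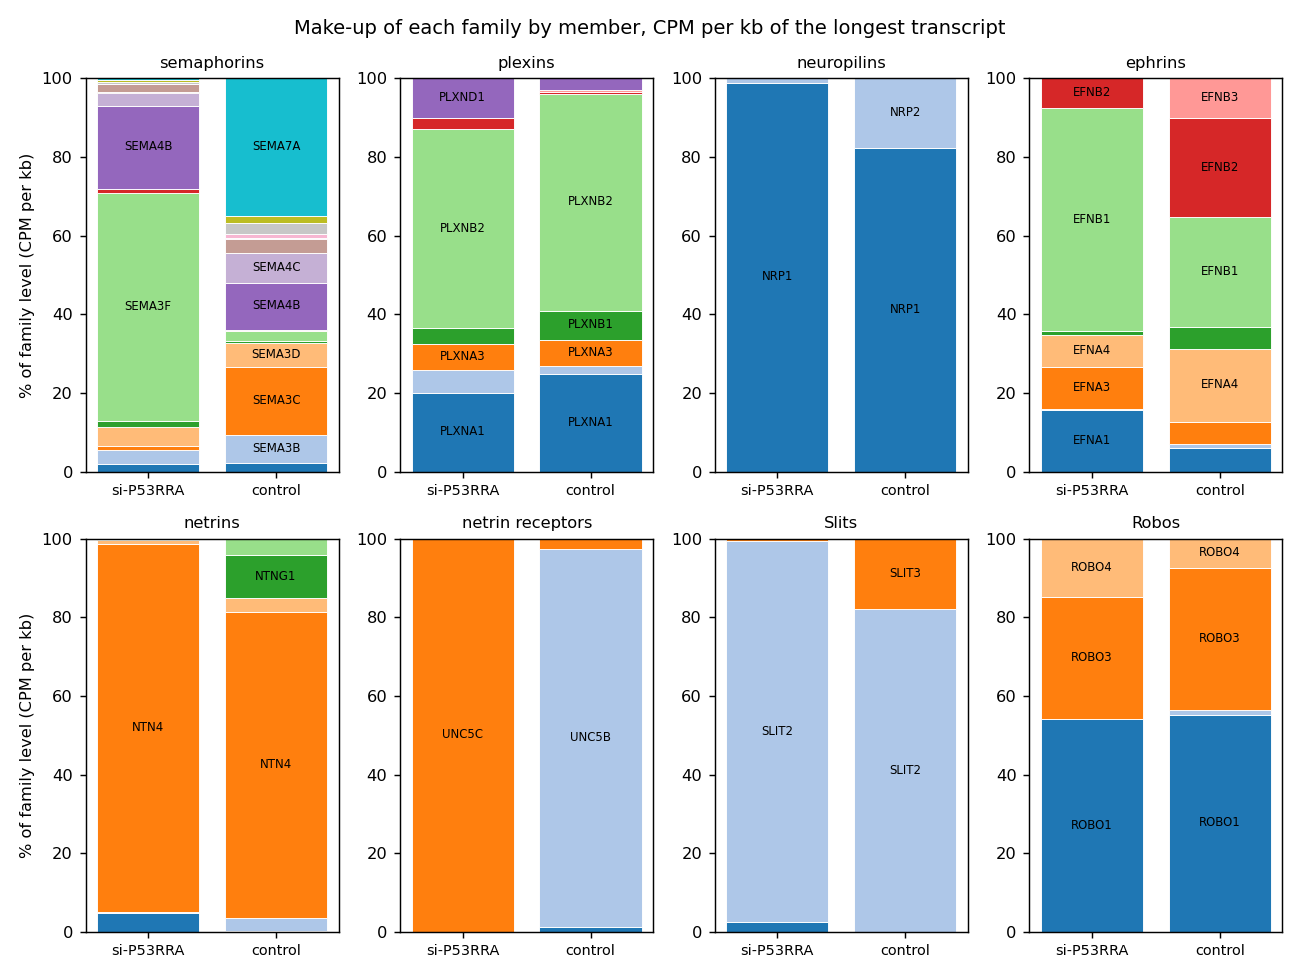
Share of each family's level by member, in percent of summed CPM per kilobase of the longest transcript, for the si-P53RRA library (left bar) and the control library (right bar). The leading member differed for semaphorins (SEMA3F at 58.1% against SEMA7A at 34.9%) and for UNC5A, UNC5B and UNC5C, and was the same for plexins, neuropilins, ephrins, netrins, Slits and Robos with this length.

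Across families and per kilobase of the longest transcript, NRP1 stood first in the si-P53RRA library at 127 CPM per kilobase, then EFNB1 at 70.0 and SEMA3F at 55.01. In the control library PLXNB2 and NRP1 stood at the top, at 44.01 and 43.3 CPM per kilobase, followed by SEMA7A at 34.6, PLXNA1 at 19.8 and SEMA3C at 17.1. With 1 library each, the order of near neighbours such as PLXNB2 and NRP1 has no replicate spread to set it against. With the median transcript length NRP1 stayed first in the si-P53RRA library and PLXNB2 first in the control library.

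Partner genes of these cues were followed through 5 lists of receptors and effectors. Of 14 listed Eph receptors, 13 were in the table and 10 passed the filter, 4 of them higher and 2 lower, with a median log2 change of 0.84, beside 19.7% and 23.2% of all genes. EPHA2, the receptor of EFNA1, had 3591 counts (315 CPM) in the si-P53RRA library and 1745 counts (104 CPM) in the control library, 3.03-fold higher (2.86 to 3.21). EPHA5 had 230 counts (20.2 CPM) in the si-P53RRA library and 103 counts (6.14 CPM) in the control library, 3.28-fold higher (2.59 to 4.18). EPHA4 and EPHA7, receptors prominent in the nervous system, had 22 and 7 counts in the si-P53RRA library and 178 and 349 in the control library, 5.50-fold lower (3.52 to 9.001) and 33.9-fold lower (16.3 to 84.9). EPHA7 passed the filter only through the control library. The other 2 higher receptors, named after their values were seen, were EPHA3 and EPHB4, with log2 changes of 1.18 and 1.011. Both calls were lost with a pseudocount of 2.5 CPM, and that of EPHB4 also with total-count scaling and with the adjustment for GC content and length.

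Among 23 listed other receptors and co-receptors, 18 were in the table and 13 tested. Of these 13, 6 were higher and 6 lower, beside 19.7% and 23.2% of all genes. The filter was met through the si-P53RRA library alone by 4 of them and through the control library alone by 2. NEO1, PTK7 and KDR, described next, each met it only through their higher library. The 7 that reached 1 CPM on both sides gave 3 higher and 4 lower calls, beside 16.2% and 17.0% of all such genes. Neogenin, NEO1, which binds netrins and repulsive guidance molecules, had 0 counts in the si-P53RRA library and 1086 counts (64.7 CPM) in the control library, at least 246-fold lower. PTK7, a pseudokinase that can associate with plexins, had 9 counts (0.789 CPM) in the si-P53RRA library and 2584 counts (154 CPM) in the control library, 195-fold lower (103 to 427). KDR, the VEGF receptor that pairs with NRP1 and an endothelial marker, had 61 (si-P53RRA) and 0 (control) counts and was at least 29.9-fold higher, and FLRT2, an UNC5 ligand, had 207 (si-P53RRA) and 21 (control) counts, 14.5-fold higher (9.24 to 23.9).

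Cytoplasmic effectors were in 3 lists. Of 24 effectors of plexins and semaphorins, 21 were tested, with a median of −0.42. Of these 21, 1 was higher and 8 were lower, beside 19.7% and 23.2% of all genes. The filter was met only through the control library by 2 of them, RND2 and CRMP1. With at least 1 CPM in both libraries, 1 of 19 was higher and 6 were lower, beside 16.2% and 17.0% of all such genes. RND2 and RND3, small GTPases related to the plexin-binding RND1, had 1 and 259 counts in the si-P53RRA library and 108 and 2645 in the control library, 73.4-fold lower (12.9 to 2927) and 6.94-fold lower (6.11 to 7.92). MICAL2, an actin-oxidising monooxygenase, was 6.39-fold lower (5.69 to 7.19), and DPYSL3, of the collapsin response mediator proteins, 4.66-fold lower (4.41 to 4.92). The 1 that was higher, named after its value was seen, was the exchange factor FARP2, at 1.24 on the log2 scale.

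Of 20 effectors of ephrins and Ephs, all tested, 4 were higher and 5 were lower (median −0.55), a share near the 19.7% and 23.2% of all genes. The GTPase exchange factors TIAM1, VAV3 and NGEF, all known downstream of Eph receptors, were 52.8-fold (29.2 to 107), 16.2-fold (9.97 to 27.9) and 10.5-fold (9.05 to 12.2) higher. The adaptor NCK2 was 18.5-fold lower (11.7 to 31.0). Named after their values were seen, the other higher gene was CHN2 at 1.89, and the other lower ones were GRIP1 at −2.64, ADAM10, a protease that sheds ephrins, at −2.19, ABL2 at −1.97 and PTPN13 at −1.19. The call of CHN2 was lost with a pseudocount of 2.5 CPM and that of PTPN13 with the adjustment for GC content and length. TIAM1 and CHN2 passed the filter only through the si-P53RRA library, and GRIP1 only through the control library.

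Of 19 effectors of netrins, Slits and Robos, 5 were higher and 3 were lower (median 0.14), beside 19.7% and 23.2% of all genes. SRGAP3, a Slit-Robo GTPase-activating protein, was 8.74-fold higher (5.28 to 15.3) and ABLIM3, an actin-binding LIM protein, 5.13-fold higher (4.68 to 5.63). TRIO, an exchange factor downstream of DCC, was 9.42-fold lower (8.80 to 10.1), and DAPK1, a death-associated kinase reported to act with UNC5B, had 0 (si-P53RRA) and 147 (control) counts and was at least 33.3-fold lower. DAPK1 passed the filter only through the control library. Named after their values were seen, the other higher genes included ABLIM1 at 1.68 and ARHGAP39 at 1.63, and the other lower one was DOCK1 at −1.11, a call lost with the same adjustment. Over the 5 lists together, 20 of 83 tested partner genes were higher (24.1%) and 24 lower (28.9%), near the 19.7% and 23.2% of all genes tested.

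**Figure D4:**
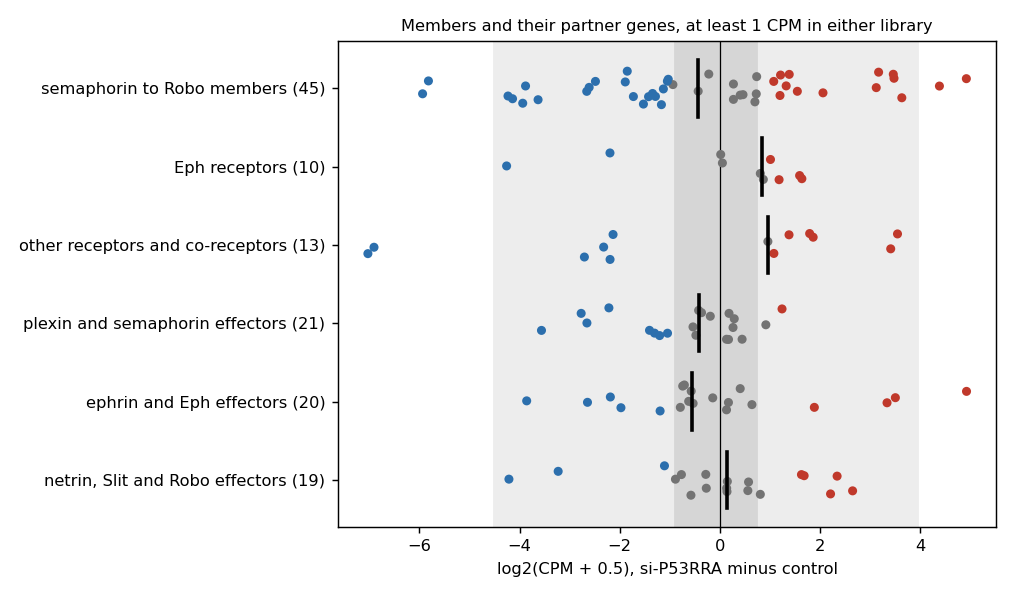
Log2 change of each tested gene, si-P53RRA minus control, for the 45 guidance genes and the 5 lists of partner genes, with a black bar at each median and colours for at least 2-fold higher (red), lower (blue) or neither (grey). The bands hold the middle 50% (dark, −0.91 to 0.74) and 95% (light, −4.51 to 3.96) of all genes tested.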

How the data were processed

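The authors deposited whole-number counts for 2 libraries, 1 row per gene symbol. That they are not normalized was judged from their unequal totals. Reads were mapped to hg19, per the submitters' processing notes, while nothing used here names the aligner, counting program, annotation or strand setting. In GENCODE 29, 19 guidance genes share exon sequence with another gene, 14 of them on the opposite strand, among them NRP1, NRP2, SEMA3F, SEMA5A, SLIT3 and UNC5C, and such reads cannot be told apart without strand. Column si-P53RRA matched that sample's title, and the other column was taken as the control.

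Libraries were scaled by TMM in edgeR 4.0.16 under R 4.3.3 (factors 0.955 for si-P53RRA and 1.05 for control). Log2 changes used a pseudocount of 0.5 CPM, and folds are CPM ratios without it. Ratio intervals are exact conditional binomial, and shares have Wilson intervals. For bounds, a library at 0 was set at 3 counts (0.263 CPM for si-P53RRA, 0.179 CPM for control). Intervals and bounds cover counting error only, since PCR copies were not told from molecules.

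Members with at least 5 CPM in either library got full values, and of each partner list up to 4 such genes were named, those farthest apart and at least 1 apart on the log2 scale. The members and all lists were chosen with earlier results of these data known. Lengths and gene order came from GENCODE 29 and promoter windows from RefSeq (GRCh38.p14). The procedure was tested on simulated data. Alternatives were total counts, the upper quartile and DESeq2 1.42.0 median ratios for scaling, other pseudocounts, filters, sizes of change and transcript lengths, and, added after the data were seen, a cubic correction for GC content and length. A few genes of these lists are not reported here.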

Additional observations from a re-analysis of the deposited data

How the results depend on the processing

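With 1 library per group, nothing could be left out in turn. No paired analysis was possible because each group has a single library. Scaled on total counts, on the upper quartile or by median ratios, 13 to 14 guidance genes were higher and 21 to 22 lower, but scaling on total counts moved the median log2 change of all genes tested to −0.18, against −0.055. A pseudocount of 2.5 CPM gave 10 higher and 15 lower, and the correction for GC content and length 12 and 21. At 4-fold, 8 guidance genes were higher and 10 lower, and 8 partner genes were higher, which follows from the stricter size. The median of guidance genes changed sign once, to 0.025 with at least 5 CPM required, where 38 genes were left. It was −0.057 after the correction, −0.19 with no filter and −0.33 without genes at 0 in either library. Of 28 fully described genes that were called, 23 stayed at least 2-fold apart in the same direction under each scaling, pseudocount and the correction. The 5 that did not were ROBO4, EFNA4, PLXNB3, SEMA3B and PLXNA3, whose log2 changes with a pseudocount of 2.5 CPM were 0.91, 0.97, 0.77, −0.91 and −0.996. With the main pseudocount of 0.5 CPM these values were 1.32, 1.20, 1.08, −1.03 and −1.05. A larger pseudocount brings every log2 change nearer to 0 by construction. The cause of the moves under other settings was not tested. Genes at a few counts, such as SLIT3, SEMA5A and NTN1, have wide counting intervals at this depth.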
